A study of Mus musculus with 28 samples.

Results

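The 10 glycolysis genes described here were Slc2a1, Slc2a3, Hk1, Hk2, Pfkp, Aldoa, Pgk1, Pkm, Ldha and Slc16a3, a set named for the glycolysis of proliferating cells. They were picked out of the tables by gene name, with no threshold on their values, and each name matched 1 of the 31673 genes in the tables. All 10 were among the 16061 genes with enough counts to be tested. Glycolysis turns glucose into pyruvate in the cytosol and yields ATP without oxygen. Slc2a1 and Slc2a3 encode glucose transporters of the cell membrane, hexokinases (Hk1, Hk2) trap glucose as its phosphate, and phosphofructokinase (Pfkp) catalyses the committed step. Aldolase (Aldoa), phosphoglycerate kinase (Pgk1) and pyruvate kinase (Pkm) carry the sugar on to pyruvate, lactate dehydrogenase (Ldha) reduces pyruvate to lactate, and Slc16a3 exports the lactate. Dividing cells are known to run this pathway fast even with oxygen present, and hypoxia-inducible factors and MYC are known to raise its genes. Adult hepatocytes are known to rely on other forms, among them Slc2a2 and Pklr, and to release glucose.

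The series dealt with mouse fibroblasts turned by chemicals towards the endoderm lineage, and RNA sequencing was given for 28 libraries in 9 groups. MNF_ciHep (2 libraries) and MEF_ciHep (3) were ciHeps made from ciEPCs at passage 3 to 10, and pHep (2) came from adult mouse liver at passage 0. MNF_ciEPC (2, at passages 2 and 3) and MEF_ciEPC (10) were ciEPCs made from the fibroblasts in their name, and ESC_EPC (2) were EPCs made from embryonic stem cells at passage 10 to 15. The starting cells were ESC (2), OG2 embryonic stem cells at passage 5, MNF (2), neonatal dermal fibroblasts at passage 2, and MEF (3), E13.5 embryo fibroblasts at passage 2. MEF_ciEPC held 2 numbered series, with 6 libraries of series 1 (passages 2, 3, 4, 6, 10 and 22) and 4 of series 2 (passages 1, 5, 10 and 22). They were read, from the titles, as passages of 1 culture line a series and were summed to 1 sample each for the tests between groups. The passage trend used the single libraries. Every group, controls included, was labelled as carrying an Oct4-GFP transgenic allele on a CBA/CaJ X C57BL/6J background. The MEF, MEF_ciEPC, MEF_ciHep, ESC_EPC and ESC labels added a cross to 129Sv/Jae females, which those of MNF, MNF_ciEPC, MNF_ciHep and pHep did not. Strain and fibroblast source therefore cannot be told apart. Nor can strain and cell type in pHep against MEF or in MEF_ciHep against pHep. The labels do not spell out ciEPC or ciHep, and do not say whether replicates came from separate cultures or animals, so p-values measure the spread between these samples, which may be technical.

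Libraries held 1439670 to 6133147 expected counts. Gene lengths in the tables imply reads or fragments of 49.5 to 50.6 bases for MNF_ciHep, MEF_ciHep, pHep and MEF_ciEPC libraries, 186.6 to 195.7 bases for ESC_EPC, and 74.3 to 74.5 bases for MNF_ciEPC, ESC, MNF and MEF. A comparison across these length classes cannot be told apart from the class. Some libraries went against their labels. The MEF_ciEPC library of series 2 passage 22 had a summed level of 13163 TPM (transcripts scaled to gene length and library size) over 5 pluripotency markers, against at most 56.7 TPM in the other 9, and 1908 TPM of Pou5f1. Its endoderm markers summed to 72.7 TPM, against at least 1626 TPM in the others. In MNF_ciHep, 6 hepatocyte markers summed to 36.9 and 128 TPM, with Alb at 0 and 0.56 TPM, and 6 fibroblast markers to 1070 and 2586 TPM. MEF_ciHep had 11625 to 25239 TPM of the hepatocyte markers and 27.5 to 46.0 TPM of the fibroblast markers, and pHep 15491 and 26978 TPM of the hepatocyte markers. Most of the MEF_ciHep sum was Apoa1, with a mean of 16835 TPM against 4469 TPM in pHep. Mean levels of Alb (1754 against 12969 TPM), Ttr, Serpina1a and Fgb were lower in MEF_ciHep than in pHep. Those of Cyp3a11 were 14.3 and 15.4 TPM. All differences below are of bulk RNA, in which fewer cells of a type and less RNA per cell cannot be told apart.

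RefSeq promoter windows, from 250 bases before to 50 bases after an annotated start (build GRCm38.p6), were given for 9 of the 10 members, 14 windows in all. Slc2a3 had no entry. The core of the hypoxia response element is ACGTG or GCGTG, counted here on either strand. It occurred in 11 of the 14 windows, against 43.8% of 32817 mouse promoter windows of that length. Each of the 9 members had it in at least 1 window. ACGTG alone occurred in 9 windows of 8 members, against 19.6% of all windows. Some members had more than 1 window, so a count by member cannot be set against a share of windows. Nor are the windows independent. The Aldoa windows at 126799205 to 126799504 and 126799129 to 126799428 overlap and hold the same ACGTG match, counted in both. The E-box CACGTG, known as a binding motif of MYC, holds an ACGTG match on each strand. Among the members it occurred only in a window of Ldha, against 7.1% of all windows. The windows of Hk2, Pfkp, Slc2a1 and Ldha are printed 5′ to 3′ on the strand of the gene, since the first 3 belong to the members with the widest ranges of level after Slc2a3 and Ldha holds the most matches. Capitals mark every match on either strand (CACGT and CACGC are the reverse strand of ACGTG and GCGTG).
Slc2a1 (chr4:119108495-119108794, plus strand): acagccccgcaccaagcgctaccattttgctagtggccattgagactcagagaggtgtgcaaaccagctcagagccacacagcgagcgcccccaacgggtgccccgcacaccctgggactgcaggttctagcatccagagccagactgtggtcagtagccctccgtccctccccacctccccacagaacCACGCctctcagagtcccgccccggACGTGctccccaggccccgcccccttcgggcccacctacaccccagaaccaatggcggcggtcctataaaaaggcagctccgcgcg
Hk2 (chr6:82774405-82774704, minus strand): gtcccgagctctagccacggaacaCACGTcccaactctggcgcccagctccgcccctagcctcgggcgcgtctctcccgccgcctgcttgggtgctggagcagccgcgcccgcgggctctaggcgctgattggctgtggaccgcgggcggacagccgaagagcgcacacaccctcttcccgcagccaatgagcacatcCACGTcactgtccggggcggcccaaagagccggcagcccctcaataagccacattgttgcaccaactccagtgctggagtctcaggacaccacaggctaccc
Pfkp (chr13:6648722-6649021, minus strand): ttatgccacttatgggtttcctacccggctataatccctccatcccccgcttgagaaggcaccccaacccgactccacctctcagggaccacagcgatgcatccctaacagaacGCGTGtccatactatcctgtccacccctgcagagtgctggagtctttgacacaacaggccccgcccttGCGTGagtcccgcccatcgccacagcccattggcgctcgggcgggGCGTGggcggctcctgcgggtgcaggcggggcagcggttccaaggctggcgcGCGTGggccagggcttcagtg
Ldha (chr7:46845554-46845853, plus strand): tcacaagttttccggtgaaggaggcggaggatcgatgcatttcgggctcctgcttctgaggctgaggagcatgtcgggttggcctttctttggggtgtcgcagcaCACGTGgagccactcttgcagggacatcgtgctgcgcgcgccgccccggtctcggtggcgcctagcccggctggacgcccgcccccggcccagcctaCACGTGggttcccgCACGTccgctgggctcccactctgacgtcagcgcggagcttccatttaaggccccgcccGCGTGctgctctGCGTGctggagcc
The Hk2 window held 2 ACGTG matches and no GCGTG, the Pfkp window 4 GCGTG matches, the Slc2a1 window 1 of each, and the Ldha window 5 ACGTG and 2 GCGTG matches. At least 3 matches occurred in 3 of the 14 windows of members, against 8.9% of all windows. The shares over all windows were not matched for base composition. A match describes these letters only and says nothing of binding in these cells.

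Expression levels are TPM as deposited, which are scaled to gene length and so can be set beside each other between genes. Aldoa, Pkm and Ldha, abundant enzymes of the lower pathway, had higher mean TPM than the carriers, hexokinases and Pfkp in every group. Slc2a3 (chromosome 6, 122727809 to 122801640, minus strand, ENSMUSG00000003153) spread most, with a log2 ratio of 10.25 between its highest and lowest group mean. Its mean was 596 TPM in MNF_ciEPC, 755 TPM in MEF_ciEPC and 513 TPM in ESC, while pHep had 0.62 TPM, MNF 4.16 TPM and MEF 8.06 TPM. ESC_EPC (452 TPM) and MEF_ciHep (431 TPM) followed ESC, and MNF_ciHep stood between at 158 TPM. Hk2 (log2 ratio 4.66) and Pfkp (4.59) came next, with Hk2 highest in MEF_ciEPC and lowest in MNF, and Pfkp highest in MNF_ciEPC and lowest in ESC_EPC. Slc2a1 (3.39) and Hk1 (2.90) both had their highest mean in MEF_ciHep, at 573 and 139 TPM. Slc16a3 (2.09) and Pgk1 (1.97) spread less. Ldha, Aldoa and Pkm spread least, with log2 ratios of 1.68, 1.36 and 1.25. In the order of group means, no neighbouring groups had separate ranges for Aldoa or Ldha, against 5 of 8 neighbouring pairs for Slc2a3 and for Hk1.

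**Figure D1:**
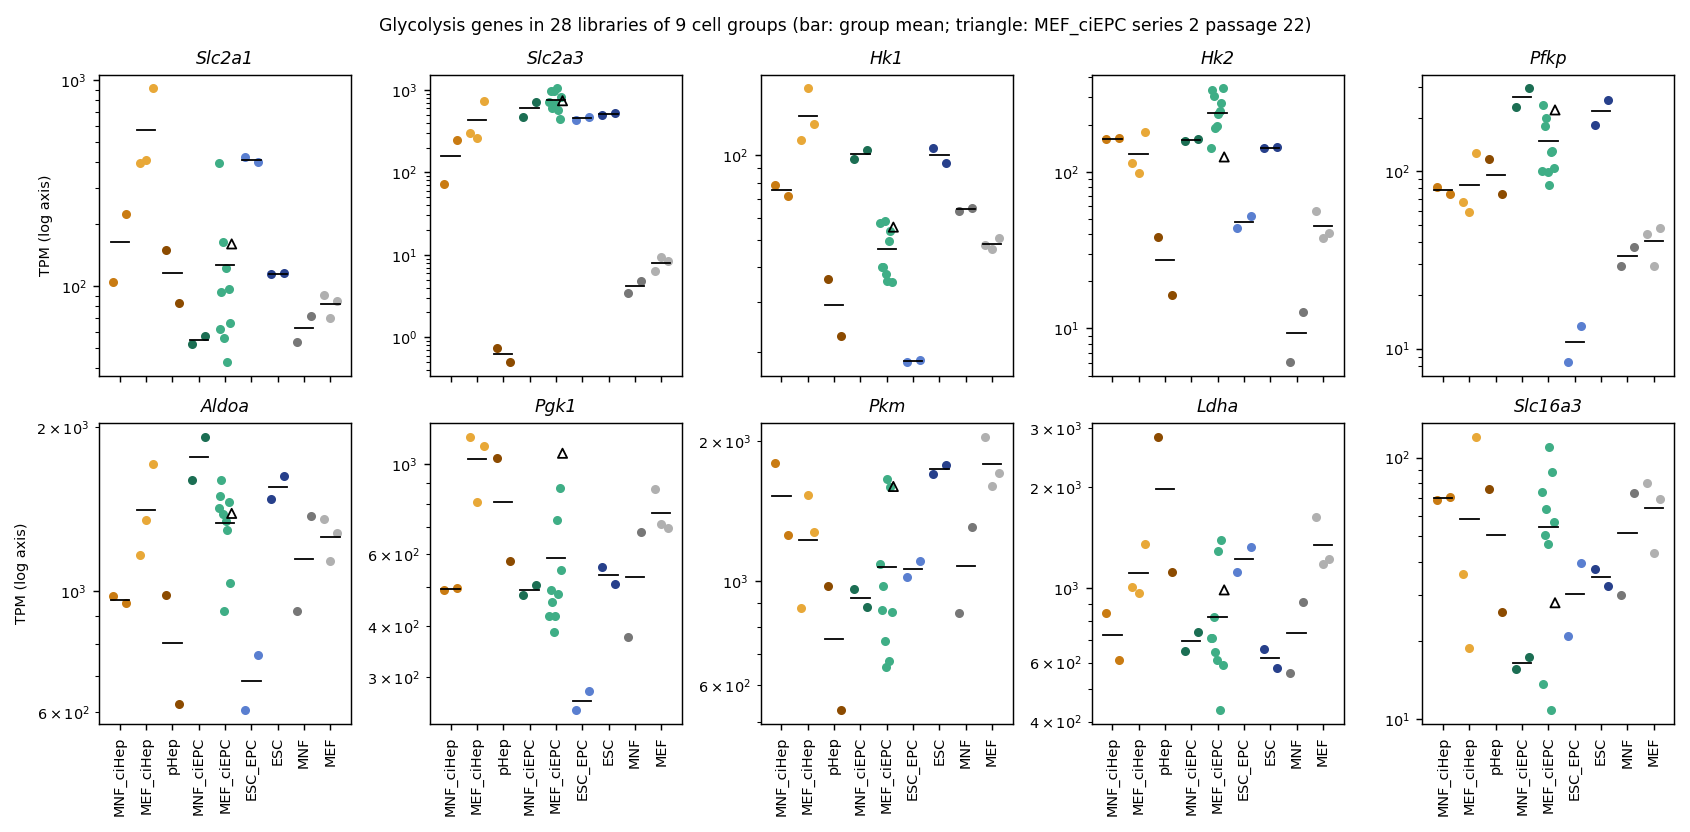
TPM of each of the 10 members (log axis) in every library of the 9 groups, where points are libraries, bars are group means and the triangle is MEF_ciEPC series 2 passage 22. Slc2a3 lies above 400 TPM in every ciEPC library and below 10 TPM in every fibroblast library, whereas Aldoa and Pkm overlap between most groups.

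The set's name was checked against 20 proliferation genes. MEF_ciHep had 6186 ± 1278 summed TPM of the 10 members (SD, n = 3), the highest group mean, and a proliferation sum of 361 to 640 TPM. That rank rests on replicate 3, since its libraries had 5248, 5669 and 7641 TPM and ESC had 5476 and 5651 TPM. Libraries of pHep (6248 TPM), MEF (6229 TPM) and MEF_ciEPC (6651, 6393 and 6366 TPM) lay above the lower pair of MEF_ciHep libraries. ESC had 5563 ± 124 TPM of the members (SD, n = 2) and a proliferation sum of 5204 to 5663 TPM. MNF had the lowest member sum, 3715 ± 1160 TPM (SD, n = 2), with a proliferation sum of 561 to 617 TPM. The sums of the members thus did not order the groups as the proliferation genes did, and the genes are called here by their own names. Over the 9 group means, which share the length classes named above, the correlation of a member with the mean proliferation gene (both as log2(TPM + 1)) ran from -0.47 for Ldha to 0.58 for Hk2. Slc2a3 had 0.53, Slc2a1 -0.36 and Pgk1 -0.37. The 10 members held 0.29 to 0.766% of all TPM of a library.

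**Figure D2:**
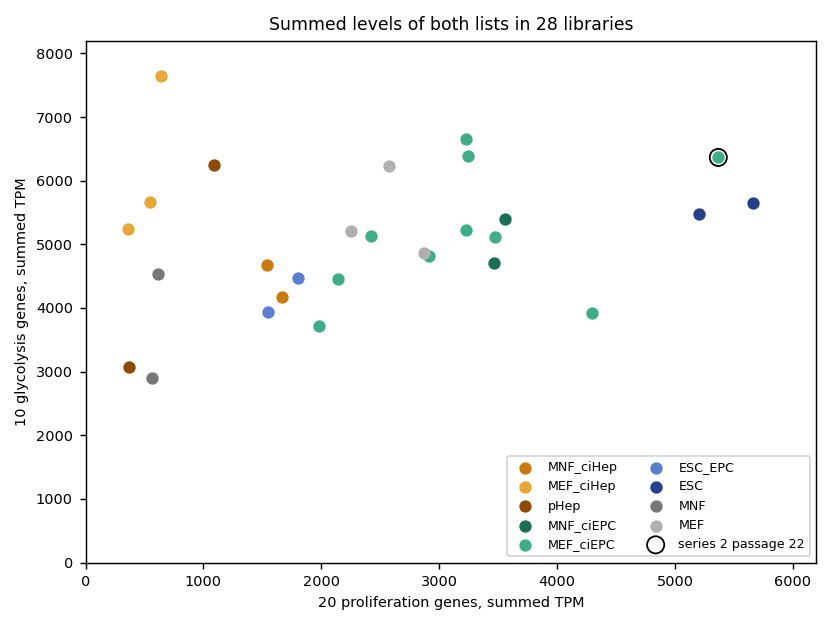
Summed TPM of the 10 members against summed TPM of 20 proliferation genes, 1 point a library, coloured by group. MEF_ciHep libraries have member sums of 5248, 5669 and 7641 TPM with proliferation sums of 361 to 640 TPM, and ESC libraries 5476 and 5651 TPM with 5204 and 5663 TPM.

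The first comparison asked which members differed between ciEPCs and the fibroblasts they came from. Slc2a3, Hk2 and Pfkp, the high-affinity glucose transporter, the inducible hexokinase and the platelet form of phosphofructokinase, rose in ciEPCs of both fibroblast sources, and no other member was called. For Slc2a3, the MNF_ciEPC libraries had 472 and 719 TPM, against 3.47 and 4.85 TPM in MNF. The MEF_ciEPC libraries had 439.9 TPM at the lowest, a median of 726 TPM and 1043 TPM at the highest, against 6.37, 9.40 and 8.40 TPM in MEF. Every ciEPC library lay above every fibroblast library of its source. The fitted log2 fold change was 7.10 ± 0.64 (standard error, 137-fold) in MNF_ciEPC against MNF and 6.16 ± 0.51 (71.5-fold) in MEF_ciEPC against MEF. The edgeR quasi-likelihood test with Benjamini-Hochberg adjustment gave adjusted p = 3.94e-07 and 1.95e-07 for them.

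Hk2 (chromosome 6, 82725025 to 82774454, minus strand) had 156 and 162 TPM in MNF_ciEPC, against 6.09 and 12.7 TPM in MNF. In MEF_ciEPC it had 124 TPM at the lowest, a median of 238 TPM and 340.2 TPM at the highest, against 56.2, 37.65 and 40.6 TPM in MEF. The groups of each pair did not overlap. Its log2 fold change was 3.87 ± 0.43 (14.6-fold, adjusted p = 2.76e-06) in MNF_ciEPC against MNF and 2.12 ± 0.34 (4.35-fold, adjusted p = 1.19e-04) in MEF_ciEPC against MEF. Pfkp (chromosome 13, 6579768 to 6648777, minus strand) had 229.8 and 293 TPM in MNF_ciEPC, against 29.2 and 37.2 TPM in MNF. In MEF_ciEPC it had 83.7 TPM at the lowest, a median of 129 TPM and 235 TPM at the highest, against 44.4, 29.2 and 47.7 TPM in MEF. These groups did not overlap either. The log2 fold change of Pfkp was 2.72 ± 0.38 (6.59-fold, adjusted p = 2.27e-05) from MNF and 1.55 ± 0.32 (2.94-fold, adjusted p = 9.96e-04) from MEF. Pitrm1 lies opposite Pfkp and reached 146 TPM, and the counting is not stated to use strand, so reads of that pair cannot be told apart. Genes overlapping the other members reached at most 17.1 TPM. The promoter windows printed above hold 2 ACGTG matches for Hk2 and 4 GCGTG matches for Pfkp. Slc2a3 had no window. The other members with a window were not called, among them Ldha and Hk1, with 7 and 5 matches in a window. A part of these matches was not tested. Without the series 2 passage 22 library, the MEF_ciEPC against MEF values were 6.14 (Slc2a3), 2.27 (Hk2) and 1.46 (Pfkp).

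The 3 members called higher in MNF_ciEPC against MNF compare with 18.4% of all genes tested called higher and 40.2% called in either direction. For MEF_ciEPC against MEF, the 3 called higher compare with 17.6% higher, 15.8% lower and 33.4% in either direction. The median log2 fold change of the 10 members was 0.14 from MNF (0 over all genes) and -0.22 from MEF (0.12 over all genes). The other 7 members ranged from -1.84 (Slc16a3) to 0.52 (Hk1) from MNF and from -0.90 (Pkm) to 0.29 (Slc2a1) from MEF. Slc16a3, the lactate exporter of highly glycolytic cells, had 15.5 and 17.35 TPM in MNF_ciEPC, against 29.9 and 73.5 TPM in MNF. The ranges did not overlap, but its adjusted p was 0.0514, and 8 of 18 alternative settings called it. Pkm had a log2 fold change of -0.90 from MEF with adjusted p = 0.0314, under the 2-fold minimum. MNF_ciEPC against MNF was made within 1 length class, whereas MEF_ciEPC against MEF crossed classes. The 20 proliferation genes all rose in MNF_ciEPC against MNF (median log2 fold change 2.43), and had a median of 0.05 in MEF_ciEPC against MEF. The fibroblast markers summed to 479 to 589 TPM in MNF_ciEPC, against 23570 to 25288 TPM in MNF, and to 44.97 to 613 TPM in MEF_ciEPC, against 9048 to 12442 TPM in MEF. Most of the MNF_ciEPC sum was Pdgfra, at 466 and 551 TPM in MNF_ciEPC against 218 and 241 TPM in MNF, while Col1a1 was at 0.33 and 0.34 TPM in MNF_ciEPC. In MEF_ciEPC, Pdgfra had a median of 372 TPM, against 36.4 to 82.8 TPM in MEF. Their part in these results was not tested.

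Hk2 was the 1 member whose response was called different between the sources. MEF_ciEPC against MEF crosses length classes and MNF_ciEPC against MNF does not. A difference between these responses therefore cannot be told apart from class or strain. The interaction, the log2 fold change from MNF minus that from MEF, was 1.75 ± 0.53 for Hk2 (adjusted p = 0.0331), 1.17 ± 0.49 for Pfkp (adjusted p = 0.112) and 0.94 ± 0.71 for Slc2a3 (adjusted p = 0.399). This 1 of 10 members compares with 15.1% of all genes tested. The call was lost under 8 of 23 alternative settings, among them leaving out either MNF_ciEPC library, either MEF_ciEPC series, MEF replicate 1 or MNF replicate 1. The log2 difference then lay at 1.30 or above, with adjusted p up to 0.17. Without the series 2 passage 22 library it was 1.60 (adjusted p = 0.0447). The starting fibroblasts differed in Hk2, with the log2 fold change of MNF against MEF at -2.25 ± 0.39 (4.76-fold lower, adjusted p = 7.89e-04). MNF_ciEPC against MEF_ciEPC, across length classes, had -0.50 (adjusted p = 0.477). These comparisons share the 4 groups, so their values are given side by side only.

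**Figure D3:**
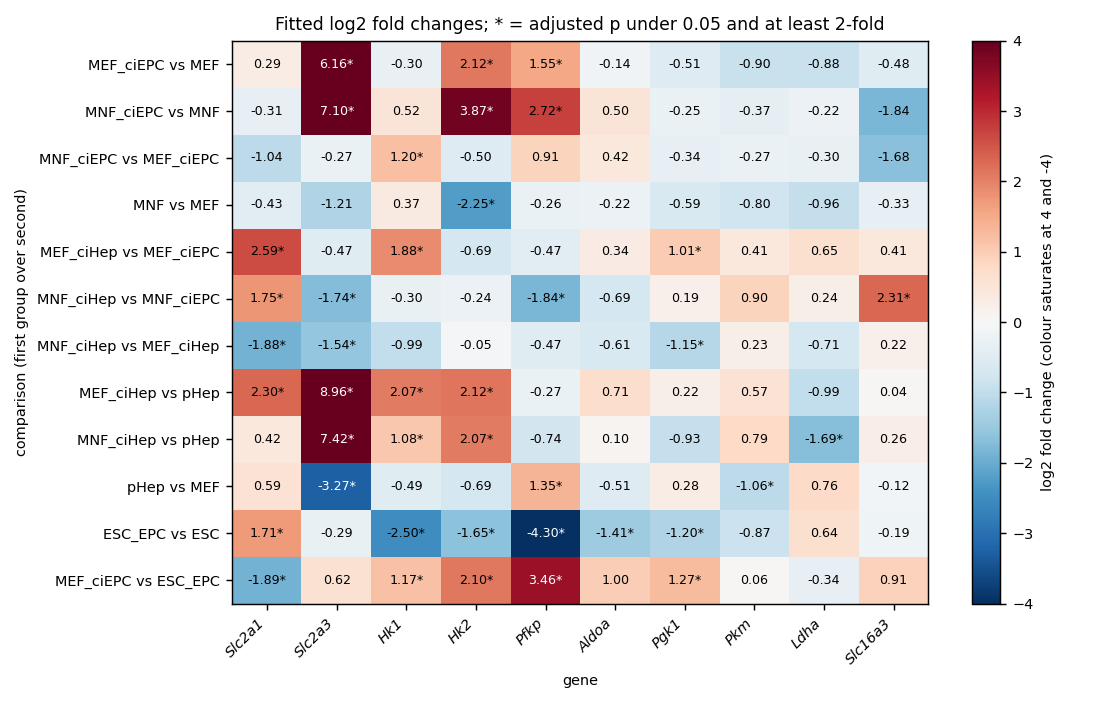
Fitted log2 fold changes of the 10 members in each comparison, the group named first over the second, where colour and the number in each cell give the value (colour saturates at 4 and -4) and an asterisk marks adjusted p under 0.05 with at least a 2-fold change. Slc2a3, Hk2 and Pfkp carry an asterisk above 0 in both ciEPC comparisons with fibroblasts.

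The second comparison asked how the members changed from ciEPCs to ciHeps. In MEF_ciHep, Slc2a1, Hk1 and Pgk1 rose relative to MEF_ciEPC, while Slc2a3, Hk2 and Pfkp were not called. Slc2a1 (chromosome 4, 119108711 to 119137983, plus strand), the ubiquitous glucose transporter, had 396, 409 and 915 TPM in MEF_ciHep. In MEF_ciEPC it had 42.8 TPM at the lowest, a median of 95.4 TPM and 397 TPM at the highest. The ranges touched through the MEF_ciEPC library of series 1 passage 2. The log2 fold change was 2.59 ± 0.46 (6.04-fold, adjusted p = 2.97e-04), and 2.92 without that library. Hk1, the hexokinase of most tissues, had 113, 173 and 129 TPM in MEF_ciHep, against 35.4 to 58.3 TPM in MEF_ciEPC, and the groups did not overlap. Its log2 fold change was 1.88 ± 0.23 (adjusted p = 9.54e-06).

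Pgk1, which makes the first ATP of the pathway, had 1169, 806 and 1105 TPM in MEF_ciHep, against 388 to 1063 TPM in MEF_ciEPC, and the groups overlapped. Its log2 fold change was 1.01 ± 0.33 (adjusted p = 0.0193). The call was lost under 8 of 19 alternatives, among them leaving out MEF_ciEPC series 1 (0.67, adjusted p = 0.207), MEF_ciHep replicate 1 (0.87) or replicate 3 (0.97). Pgk1 shares 53.84% of its 50-base stretches with the near copy Pgk1-rs7, so its counts are uncertain. That copy had 736, 430.4 and 942 TPM in MEF_ciHep, 697 and 176 TPM in pHep, and 0 TPM in both MNF_ciHep libraries. With both counted together, a setting chosen after seeing the data, the log2 fold change of MEF_ciHep against MEF_ciEPC was 1.61. Without the series 2 passage 22 library the values were 2.71 for Slc2a1, 1.88 for Hk1 and 1.08 for Pgk1, all called. The 3 members called higher compare with 17.8% of all genes called higher and 32.7% in either direction, and the median of the members was 0.41 (-0.08 over all genes). All 20 proliferation genes fell in the same comparison (median -2.53), and their part in the result was not tested.

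MNF_ciHep, in which hepatocyte markers were low, differed from MNF_ciEPC in 4 members. Slc2a1 had 105 and 224 TPM in MNF_ciHep, against 52.2 and 57.1 TPM in MNF_ciEPC. Slc16a3 had 69.2 and 71.0 TPM in MNF_ciHep, against 15.5 and 17.35 TPM in MNF_ciEPC. Both rose, and neither overlapped, with log2 fold changes of 1.75 ± 0.47 (adjusted p = 0.00793) and 2.31 ± 0.77 (adjusted p = 0.0256). Slc2a3 had 71.8 and 245 TPM in MNF_ciHep, against 472 and 719 TPM in MNF_ciEPC. Pfkp had 81.3 and 74.8 TPM in MNF_ciHep, against 229.8 and 293 TPM in MNF_ciEPC. Both fell, with the groups apart, and their log2 fold changes were -1.74 ± 0.49 (adjusted p = 0.0111) and -1.84 ± 0.37 (adjusted p = 0.00108). The comparison crosses length classes. Pfkp alone of the 4 kept its call under all alternatives run. Slc16a3 lost it without any 1 of the 4 libraries (adjusted p up to 0.137). Slc2a1 lost it without MNF_ciEPC replicate 1 or 2 or MNF_ciHep replicate 2 (1.01 without the last, adjusted p = 0.141), and Slc2a3 without MNF_ciEPC replicate 2 (-1.49) or MNF_ciHep replicate 1 (-1.23, adjusted p = 0.0821). These 2 higher and 2 lower members compare with 19.5% of all genes called higher and 10.8% lower, 30.3% in all. The median was -0.02 (0.05 over all genes), and 8 of 20 proliferation genes fell, with a list median of -0.94.

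ciHeps of both sources were then set against pHep, cells isolated from adult liver. Both comparisons share the 2 pHep libraries, so their values are given side by side and not as independent results. MEF_ciHep against pHep also crosses the strain labels, whereas MNF_ciHep against pHep does not. Slc2a3, Hk1 and Hk2 rose in both ciHep groups relative to pHep. Slc2a3 had 71.8 and 245 TPM in MNF_ciHep and 303, 259.5 and 731 TPM in MEF_ciHep, against 0.74 and 0.50 TPM in pHep. In pHep these levels rest on 6.21 and 2.0 expected counts. No ciHep library came near pHep, and the log2 fold changes were 7.42 ± 0.76 in MNF_ciHep (adjusted p = 3.46e-06) and 8.96 ± 0.76 in MEF_ciHep (adjusted p = 5.74e-07). Hk2 had 162 and 163 TPM in MNF_ciHep and 113, 97.7 and 178 TPM in MEF_ciHep, against 38.3 and 16.3 TPM in pHep, with no overlap. Its log2 fold changes were 2.07 ± 0.40 in MNF_ciHep (adjusted p = 8.43e-04) and 2.12 ± 0.38 in MEF_ciHep (adjusted p = 4.94e-04). These values depend on which pHep library is kept. Without pHep replicate 1 and without replicate 2, Hk2 had 2.97 and 1.51 in MNF_ciHep and 3.02 and 1.56 in MEF_ciHep, and Slc2a3 had 8.26 and 6.93 in MNF_ciHep and 9.80 and 8.47 in MEF_ciHep. All of these were called.

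Hk1 had 78.7 and 71.6 TPM in MNF_ciHep, with MEF_ciHep at 113 to 173 TPM as given, against 36.2 and 22.65 TPM in pHep. Both ciHep groups lay above pHep, with log2 fold changes of 1.08 ± 0.24 in MNF_ciHep (adjusted p = 0.00246) and 2.07 ± 0.23 in MEF_ciHep (adjusted p = 7.68e-06). The MNF_ciHep call was lost without pHep replicate 2 (0.64) or MNF_ciHep replicate 1 (0.998). Slc2a1 rose in MEF_ciHep, where 396, 409 and 915 TPM stood against 149.5 and 83.0 TPM in pHep, with a log2 fold change of 2.30 ± 0.46 (adjusted p = 0.00104). In MEF_ciHep, without pHep replicate 1 and without replicate 2, Slc2a1 had 3.26 and 1.71, and Hk1 2.69 and 1.63, all called. In MNF_ciHep it had a log2 fold change of 0.42. Ldha fell in MNF_ciHep, with 842 and 612 TPM against 2832 and 1119 TPM in pHep, a log2 fold change of -1.69 ± 0.41 (adjusted p = 0.00376). The 2 pHep libraries were far apart, with 6248 and 3070 TPM over the 10 members, and without pHep replicate 1, the higher of them, the value was -0.62 (adjusted p = 0.168). MEF_ciHep had a log2 fold change of -0.99 for Ldha, with 0.085 without pHep replicate 1 and -1.625 without pHep replicate 2. Pgk1 had a log2 fold change of -0.93 (adjusted p = 0.0438) in MNF_ciHep against pHep, under the 2-fold minimum. It was called without pHep replicate 2 (-1.43) and with Pgk1-rs7 counted in (-1.54). For MNF_ciHep against pHep, 3 members were called higher and 1 lower, beside 18.4% and 13.4% of all genes (31.8% in all). For MEF_ciHep against pHep, 4 were called higher, beside 15.1% higher and 25.9% in all. Medians of the members were 0.34 in MNF_ciHep (0.11 over all genes) and 0.64 in MEF_ciHep (0.01 over all genes).

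pHep was also set against MEF, across length classes and strain labels. Slc2a3 fell, with a log2 fold change of -3.27 ± 0.77 (adjusted p = 0.00267, and -4.19 to -2.47 over 19 alternatives), and Pfkp rose, at 1.35 ± 0.33 (adjusted p = 0.00313). Pfkp had 117 and 73.9 TPM in pHep, against 29.2 to 47.7 TPM in MEF, without overlap. Without pHep replicate 1 its value was 0.79 (adjusted p = 0.113). Pkm, the pyruvate kinase of most tissues, had 978 and 529 TPM in pHep, against 2045, 1601 and 1712 TPM in MEF, and fell with a log2 fold change of -1.06 ± 0.33 (adjusted p = 0.0143). Pkm lost its call under 7 alternatives, at -0.62 without pHep replicate 2 and -0.90 without MEF replicate 1. The 1 higher and 2 lower members compare with 17% of all genes higher and 17.2% lower, 34.2% in all. The median was -0.31 (-0.03 over all genes). The 6 macrophage markers in the tables summed to 109 to 163 TPM in pHep, against 36.2 to 70.1 TPM in MEF. Cd68 had 62.3 and 104.6 TPM in pHep, against 8.57 to 14.2 TPM in MEF, a log2 fold change of 3.38. Lyz2 (0.14), C1qa (0.10) and Adgre1 (0.75) were not called. The part of these markers was not tested.

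ESC_EPC gave the largest number of member calls of the 14 comparisons, with Hk1, Hk2, Pfkp, Aldoa and Pgk1 falling and Slc2a1 rising relative to ESC. Hk1 had 18.35 and 18.7 TPM in ESC_EPC, against 106 and 94.1 TPM in ESC. Hk2 had 43.6 and 52.25 TPM in ESC_EPC, against 141 and 144 TPM in ESC. Pfkp had 8.39 and 13.3 TPM in ESC_EPC, against 183 and 253 TPM in ESC. For all 3, the ESC_EPC libraries lay far below those of ESC, with log2 fold changes of -2.50 ± 0.25 for Hk1 (adjusted p = 2.55e-06), -1.65 ± 0.39 for Hk2 (adjusted p = 0.00303) and -4.30 ± 0.41 for Pfkp (19.8-fold lower, adjusted p = 1.95e-06). Aldoa, which splits fructose bisphosphate, had 605 and 764 TPM in ESC_EPC, against 1476 and 1622 TPM in ESC. Pgk1 had 248 and 276 TPM in ESC_EPC, against 559 and 507 TPM in ESC. Neither overlapped, and the log2 fold changes were -1.41 ± 0.29 (adjusted p = 0.00132) and -1.20 ± 0.35 (adjusted p = 0.0122). The Pgk1 call was lost without ESC replicate 2 or either ESC_EPC library (-1.16 to -1.31, adjusted p up to 0.0807). Slc2a1 went the other way, with 425 and 399 TPM in ESC_EPC, against 114 and 116 TPM in ESC (1.71 ± 0.47, adjusted p = 0.00787, and 1.68 with adjusted p = 0.0519 without ESC replicate 1).

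Of the members not called in ESC_EPC, Slc2a3 had a log2 fold change of -0.29, Pkm -0.87, Ldha 0.64 and Slc16a3 -0.19. Ldha had 1120 and 1328 TPM in ESC_EPC, against 657 and 580.3 TPM in ESC, with no overlap. The 1 higher and 5 lower members compare with 18.6% of all genes higher and 14.7% lower, 33.2% in all, and the member median was -1.04 (0 over all genes). The comparison crosses length classes, and the 20 proliferation genes all fell in it (median -1.8). The part of either was not tested.

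MEF_ciEPC and ESC_EPC, endoderm-directed cells of different origin, differed in 5 members. Pfkp, Hk2, Pgk1 and Hk1 rose in MEF_ciEPC relative to ESC_EPC, and Slc2a1 fell. Pfkp had 83.7 to 235 TPM in MEF_ciEPC, against 8.39 and 13.3 TPM in ESC_EPC, a log2 fold change of 3.46 ± 0.40 (adjusted p = 9.58e-06). Hk2 had 124 to 340.2 TPM in MEF_ciEPC, against 43.6 and 52.25 TPM in ESC_EPC, a log2 fold change of 2.10 ± 0.39 (adjusted p = 5.56e-04). Neither overlapped. Hk1 had 1.17 ± 0.24 (adjusted p = 0.00119), Pgk1 1.27 ± 0.35 (adjusted p = 0.00921) and Slc2a1 -1.89 ± 0.47 (adjusted p = 0.00433) as log2 fold changes. Pgk1 was not called without MEF_ciEPC series 2 (0.90) or ESC_EPC replicate 1 (1.24). Without the series 2 passage 22 library all 5 were called, at 3.37 for Pfkp, 2.24 for Hk2, 1.18 for Hk1, 1.19 for Pgk1 and -2.001 for Slc2a1. The 4 higher and 1 lower compare with 16.8% of all genes higher and 14.9% lower, 31.7% in all, and the median was 0.95 (0.08 over all genes). The comparison crosses length classes and shares its groups with those above.

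The fibroblast sources were compared at each stage. MNF had less Hk2 than MEF, as given, and it was the only member called, beside 16.4% of all genes called in either direction (8.6% higher, 7.81% lower). The member median was -0.51 there (0 over all genes). Between the ciEPCs, a comparison that crosses length classes, MNF_ciEPC had more Hk1 than MEF_ciEPC. Hk1 had 97.1 and 104.9 TPM in MNF_ciEPC, against 35.4 to 58.3 TPM in MEF_ciEPC. The log2 fold change was 1.2 ± 0.23 (adjusted p = 0.00905), and it was 1.25 (adjusted p = 0.054) and 1.16 (adjusted p = 0.0896) without MNF_ciEPC replicate 1 and 2. Without series 2 passage 22 it was 1.19. This 1 member compares with 4.46% of all genes (0.971% higher, 3.49% lower), and the median was -0.28 (-0.1 over all genes). MNF_ciHep had less Slc2a1, Slc2a3 and Pgk1 than MEF_ciHep by the call rule. Their log2 fold changes were -1.88 ± 0.45 (adjusted p = 0.0029), -1.54 ± 0.46 (adjusted p = 0.0132) and -1.15 ± 0.33 (adjusted p = 0.00981). Slc2a1 and Slc2a3 did not overlap between these groups, nor did Pgk1, with 491 and 497 TPM in MNF_ciHep against 806 to 1169 TPM in MEF_ciHep. Without MNF_ciHep replicate 1, all 3 calls were lost (Slc2a1 -1.43, adjusted p = 0.0557; Slc2a3 -0.91; Pgk1 -1.15). Slc2a3 was also lost without MEF_ciHep replicate 3 (-0.95), and Pgk1 without MNF_ciHep replicate 2. With Pgk1-rs7 counted in, Pgk1 had -1.87, and that copy was at 0 TPM in MNF_ciHep, against 430.4 to 942 TPM in MEF_ciHep. Hk1 had 78.7 and 71.6 TPM in MNF_ciHep, against 113 to 173 TPM in MEF_ciHep. Its log2 fold change of -0.99 (adjusted p = 0.00178) lay just under the 2-fold minimum, and 8 of 19 alternatives called it. The 3 lower members compare with 16.1% of all genes called lower, 33.9% in all, and the median was -0.66 (0.04 over all genes). In this pair the hepatocyte markers differed as given above, and 17 of 20 proliferation genes rose in MNF_ciHep. Their part was not tested.

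Shares within each enzyme or carrier family show which form made up the family's TPM, as a description with no test. Slc2a3 made up 89.8 to 92.5% of the summed glucose transporters in MNF_ciEPC and 64.1 to 94.0% in MEF_ciEPC, against 6.08 to 6.32% in MNF and 6.50 to 11.2% in MEF, where Slc2a1 made up most. It was 50.3 to 54.1% in ESC_EPC, against 80.6 to 81.7% in ESC. In pHep, Slc2a2, the hepatocyte glucose transporter, took 1.23 and 30.2%. Among the hexokinases, Hkdc1 took 45.2 to 50.3% in MNF_ciEPC and 22.2 to 50.3% in 9 MEF_ciEPC libraries, but was at 0 TPM in series 2 passage 22 and in all 3 MEF libraries. Hk1 made up 82.5 to 89.3% of hexokinase TPM in MNF. Pfkp made up 64.8 to 66.9% of phosphofructokinase TPM in MNF_ciEPC, against 21.3 to 22.9% in MNF, and 9.62 to 12.6% in ESC_EPC, against 63.1 to 70.0% in ESC.

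At the lactate end, Ldhb, the form known to favour pyruvate, shared the family with Ldha in ciEPCs. Ldha made up 68.2 to 69.3% of the pair in MNF_ciEPC and 30.7 to 80.7% in MEF_ciEPC, against 87.4 to 92.6% in MNF and 91.6 to 96.6% in MEF. Ldhb rose in ciEPCs, with log2 fold changes of 1.81 ± 0.30 from MNF (adjusted p = 1.16e-04) and 3.06 ± 0.27 from MEF (adjusted p = 3.33e-07). In MEF_ciHep, Ldhb had 16.4, 20.6 and 7.45 TPM, against 308 to 1009 TPM in MEF_ciEPC, a log2 fold change of -5.52 ± 0.31 (adjusted p = 1.91e-08). MNF_ciHep kept 342 and 261 TPM, against 346 and 289 TPM in MNF_ciEPC (0.35, adjusted p = 0.351). Ldha thereby made up 70.1 to 71.1% in MNF_ciHep and 97.9 to 99.5% in MEF_ciHep, against 99.5 to 99.9% in pHep. Slc16a3 made up 9.56 to 10.4% of the monocarboxylate transporters in MNF_ciEPC, against 42.4 to 61.9% in MNF, and 5.25 to 52.4% in MEF_ciEPC, against 60.8 to 74.0% in MEF. Slc16a1, the carrier of broader use, rose by a log2 fold change of 1.77 ± 0.23 from MNF and 2.29 ± 0.21 from MEF. Pklr, the pyruvate kinase of liver, took 7.83 and 10.9% of pyruvate kinase TPM in pHep.

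**Figure D4:**
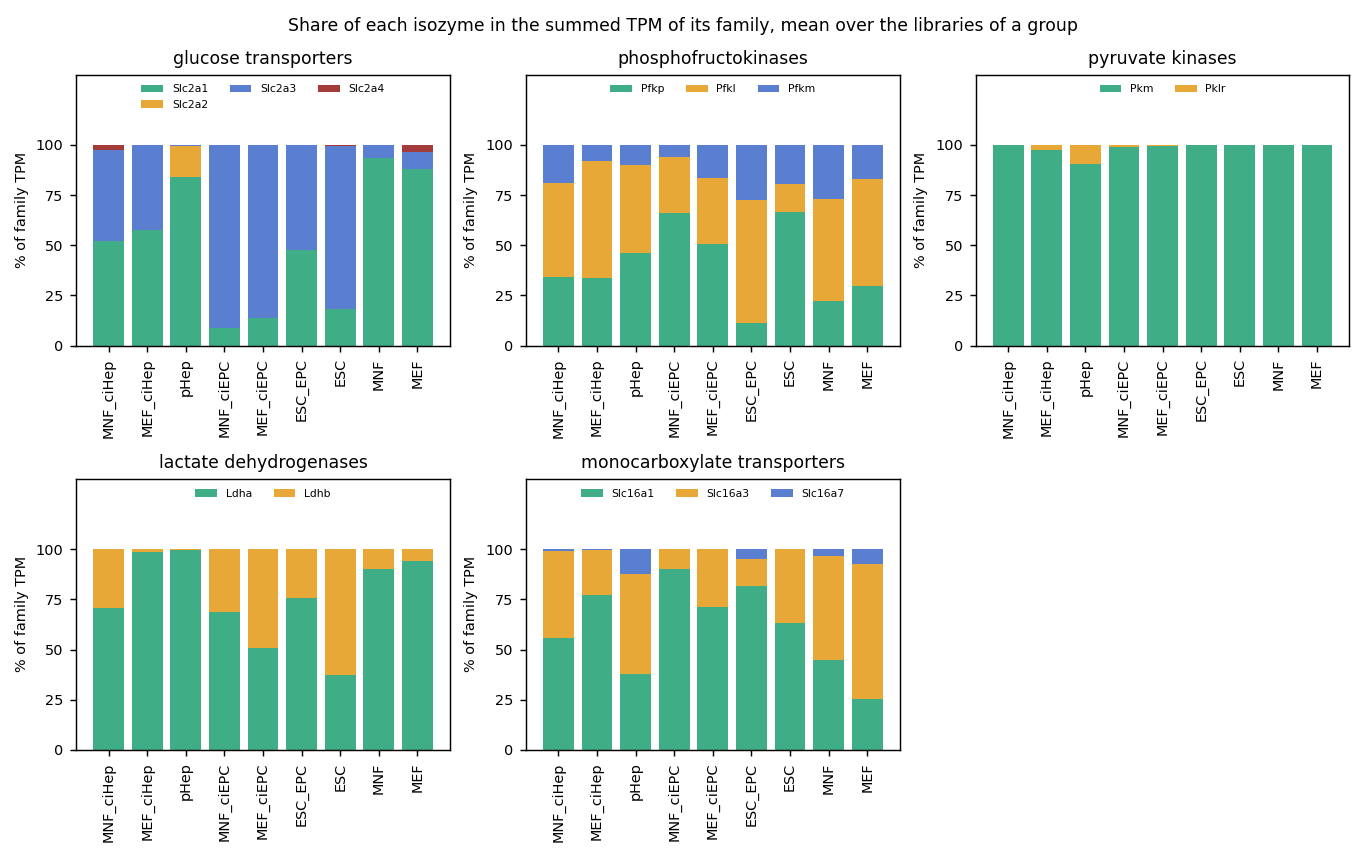
Share (%) of each form in the summed TPM of its family, for 5 families, as stacked bars of the mean over the libraries of each group. Slc2a3 takes 64.1 to 94.0% in MEF_ciEPC and 6.50 to 11.2% in MEF, and Ldha 97.9 to 99.5% in MEF_ciHep and 30.7 to 80.7% in MEF_ciEPC.

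Over the 10 MEF_ciEPC libraries, the log2 change of each member per doubling of the passage number was fitted with the series as a term. Libraries of a series were read as 1 culture line and are not independent. The p-values and standard errors of this trend are over libraries and do not measure the spread between cultures. With edgeR's quasi-likelihood test, 0 of the 10 members were called, beside 0.0242% of the 12390 genes tested (0.00807% higher, 0.0161% lower). Pgk1 was the 1 member at an unadjusted p under 0.05, with 0.22 ± 0.09 (p = 0.0311, adjusted p = 0.395), and limma called 0. The other members lay between -0.05 (Hk2) and 0.30 (Slc16a3). Slc16a3 had 0.76 ± 0.18 (adjusted p = 0.0495) when the libraries of series 2 passage 22 and series 1 passage 2 were both left out. Slc2a1 had 0.03 over all libraries and 0.34 (adjusted p = 0.288) without series 1 passage 2, its highest library. The member median was 0.09 (0.01 over all genes). Series 1 and series 2 were both kept in every such fit, and their numbers of passages differ.

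**Figure D5:**
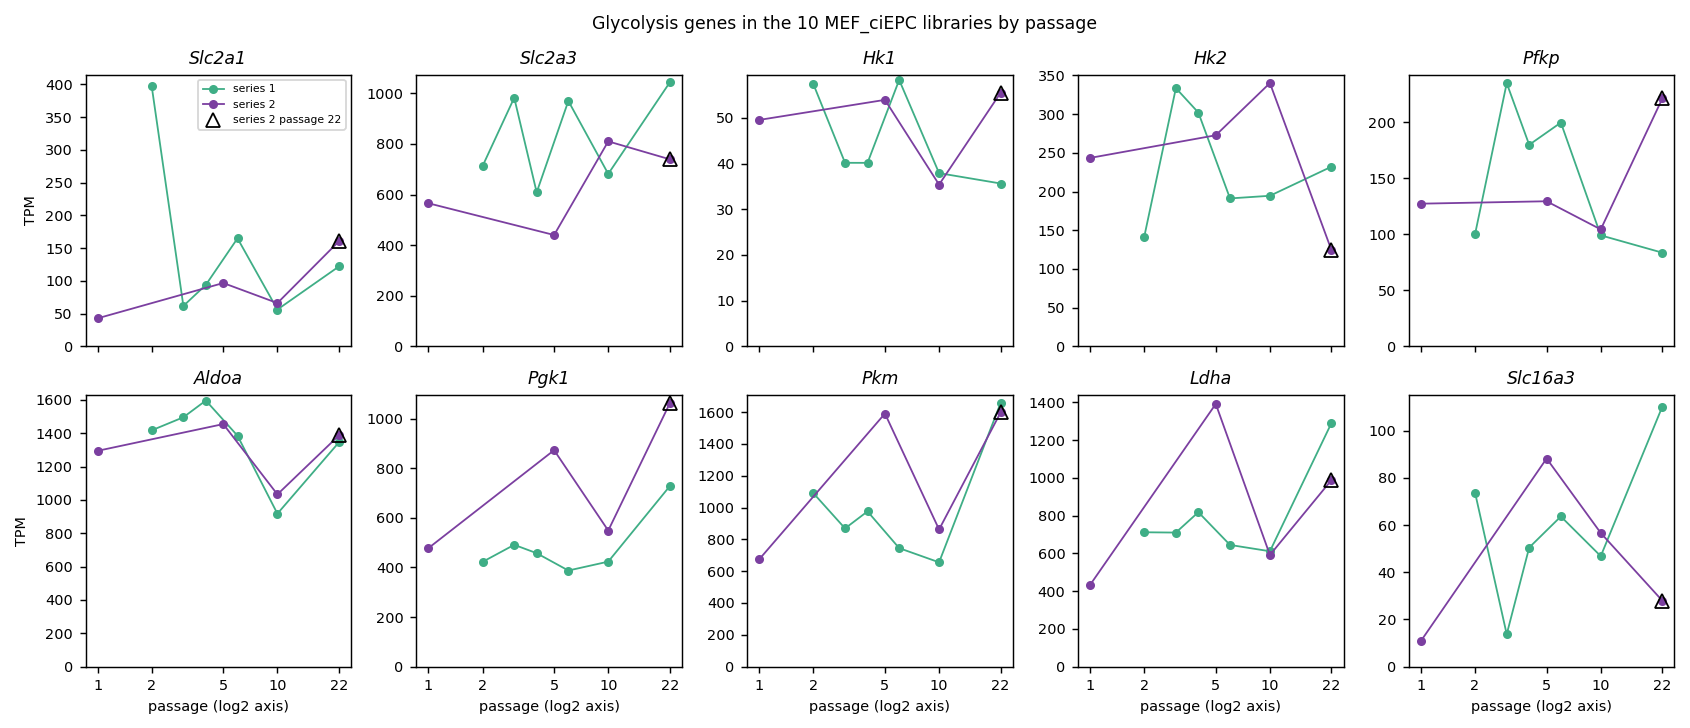
TPM of each member (linear axis from 0) against passage number (log2 axis) in the 10 MEF_ciEPC libraries, with series 1 and series 2 in separate colours and a triangle on series 2 passage 22. Slc2a1 stands at 397 TPM in series 1 passage 2 and has its lowest value at 42.8 TPM.

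The members were compared with each other over the 9 group means of log2(TPM + 1), as a description of groups that share length classes. Of 45 pairs, 17 had a correlation below 0, and the median was 0.21. Hk1 and Aldoa had 0.83, Slc2a3 and Hk2 0.82, and Pfkp and Aldoa 0.73, while Hk1 and Ldha had -0.60. Other genes were ranked by the correlation of their group means with the mean standardized level of the members. The 13276 genes ranked were those whose mean TPM passed a minimum in any group. The most alike were Cxcr2 (0.914), Paqr8 (0.889), 1810037I17Rik (0.882), Pglyrp1 (0.866), Slc51a (0.853), Fbxo33 (0.852), Cd9 (0.849) and Prss35 (0.843), over the 9 groups. As the highest of 13276 values over only 9 points, such correlations can occur by chance, and they were not tested.

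The rest of the pathway was counted in lists, with medians given as log2 fold changes of the genes tested. Of 24 tested other glycolytic enzymes and transporters, 3 rose and 3 fell in MNF_ciEPC against MNF (median 0.17), and 6 rose and 4 fell in MEF_ciEPC against MEF (median 0.08). Eno3, the muscle enolase, had log2 fold changes of -3.11 in MNF_ciEPC and -3.64 in MEF_ciEPC. In MNF_ciHep against MNF_ciEPC 7 rose and 2 fell (median 0.43), with Pfkfb3, which makes the activator of phosphofructokinase, at 3.24. In MEF_ciHep against MEF_ciEPC 4 rose and 2 fell (median 0.11), and in ESC_EPC against ESC 4 rose and 5 fell (median -0.05). These shares stand beside the percentages of all genes given above. Of 20 targets of hypoxia-inducible factors outside glycolysis, 6 rose and 5 fell in MNF_ciEPC (median -0.55), and 9 rose and 3 fell in MEF_ciEPC (median 1.05). Among all genes tested, 18.4% were called higher and 21.9% lower in MNF_ciEPC against MNF. For MEF_ciEPC against MEF these shares were 17.6% and 15.8%. Ddit4 and Adm fell in MNF_ciEPC, with log2 fold changes of -2.90 and -5.23, and P4ha2 (3.36) and Ndrg1 (3.19) rose in MEF_ciEPC. In ESC_EPC against ESC 6 of the 20 rose (median 0.62), among them Ndrg1 (3.19), Ddit4 (2.65) and Vegfa (2.10). Among all genes tested, 18.6% were called higher and 14.7% lower there.

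Of 18 regulators of the pathway, 8 rose and 3 fell in MNF_ciEPC against MNF, beside 18.4% of all genes called higher and 21.9% lower. In MEF_ciEPC against MEF, 3 rose and 1 fell, beside 17.6% of all genes called higher and 15.8% lower. Epas1, which encodes a hypoxia-inducible factor subunit, rose in both, with log2 fold changes of 8.17 ± 0.71 from MNF and 7.45 ± 0.58 from MEF. Hif1a, the other main subunit, fell in MNF_ciEPC against MNF (-1.62 ± 0.21) and in MEF_ciHep against MEF_ciEPC (-1.32), and rose in ESC_EPC against ESC (1.54). Myc fell in MEF_ciEPC against MEF (-1.62), and rose in MEF_ciHep against MEF_ciEPC (2.29), in MNF_ciHep against MNF_ciEPC (1.51) and in ESC_EPC against ESC (3.26). In MEF_ciHep against MEF_ciEPC, 3 regulators rose and 8 fell, beside 17.8% of all genes called higher and 14.8% lower. Hif3a was among the regulators that rose (5.16).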

How the data were processed

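Per the labels, sequencing used Trizol RNA and a TruSeq library kit. RSEM 1.2.4 and mm10 are named by the submitters' processing notes; the aligner, annotation release and strand setting are not given in the sources used here. The deposited tables hold expected counts (estimated, not normalized), TPM and FPKM, per the file headers; FPKM was not used. Rounded counts of 20 samples entered 1 edgeR 4.0.16 quasi-likelihood fit (R 4.3.3, TMM scaling, filterByExpr at 10 counts), with each MEF_ciEPC series summed. A call needed a Benjamini-Hochberg adjusted p under 0.05 over all 16061 genes tested and a 2-fold change; the passage trend had no fold minimum. An SE is the log2 fold change over the square root of its F value. The steps were tested on simulated data. Alternatives were limma 3.58.1, DESeq2 1.42.0, other scalings and filters, and leaving out libraries. The source name of MNF_ciEPC reads MEF, and its cell type label was followed. No replicate pair agreed within sampling noise (lowest chi-square per degree of freedom 2.67 over 57 pairs). Genes of the lists fixed with the design were named where called, among the smallest adjusted p of a list and comparison. Markers and genes of the isozyme families could be named without a call. Pitrm1 and the genes most alike the members were named outside this rule. The members and lists were chosen with earlier results of these data known. Some genes of the lists are not reported here.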

Additional observations from a re-analysis of the deposited data

Results flagged for a closer look

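Slc2a1 in the MEF_ciEPC library of series 1 passage 2 stood at 397.21 TPM, far above the other 9 MEF_ciEPC libraries, and the gap to the nearest of them exceeded Dixon's 95% critical value for 10 libraries. The 10 members were each tested once in this group, and chance flags about 1 in 20. Without this library the log2 fold change of Slc2a1 in MEF_ciHep against MEF_ciEPC was 2.92 ± 0.45, and 2.59 ± 0.46 with it.

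Hk2 had a different response in the 2 fibroblast sources by the interaction test as fitted, with a log2 difference of 1.75 ± 0.53 between MNF_ciEPC against MNF and MEF_ciEPC against MEF (adjusted p = 0.0331). The call was lost under 8 of 23 alternatives, including the replicate block and each fit without a ciEPC sample, with adjusted p up to 0.17. This 1 of 10 members stands beside 15.1% of all genes called. MEF_ciEPC against MEF crosses length classes, so the difference cannot be told apart from class or strain.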

How the results depend on the processing

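No call reversed under 16 alternatives and 20 leave-one-out fits. Of 2510 values of single members, 2400 kept their side of the call, 59 lost it and 51 gained it. The main fits held 140 values of single members, of which 41 were calls, and only those 41 could lose a call. Most values kept were therefore uncalled in both fits, and 56 of the uncalled had another sign. The calls of Slc2a3, Hk2 and Pfkp in both ciEPC comparisons with fibroblasts held under every alternative run. Replicate numbers did not pair samples, since only 2 of 73 pairs with the same number had deviations correlated above 0.1 and 2 lay below -0.1. For the interaction, 1 member was called, against 0 with the replicate block, 0 with the 10 MEF_ciEPC libraries as separate samples and 2 with only the groups compared. With only the groups compared, 3 members in place of 1 were called in MNF_ciEPC against MEF_ciEPC, 3 in place of 1 in MNF against MEF, and 2 in place of 4 in MNF_ciHep against pHep. With the 10 libraries separate, 2 in place of 4 were called in MNF_ciHep against MNF_ciEPC. Without both libraries named in the passage trend, 1 member in place of 0 was called. On TMM-scaled CPM in place of TPM, the log2 ratio of highest to lowest group mean was 9.50 in place of 10.25 for Slc2a3, 2.32 in place of 1.97 for Pgk1 and 2.33 in place of 2.09 for Slc16a3. The cause of these moves was not tested.

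When each replicate was left out in turn, the number of members called was 3 to 3 in MEF_ciEPC against MEF, 3 to 4 in MNF_ciEPC against MNF, 0 to 1 in the interaction, 0 to 1 in MNF_ciEPC against MEF_ciEPC, 1 to 1 in MNF against MEF, 2 to 3 in MEF_ciHep against MEF_ciEPC, 1 to 2 in MNF_ciHep against MNF_ciEPC and 1 to 4 in MNF_ciHep against MEF_ciHep. It was 4 to 6 in MEF_ciHep against pHep, 3 to 5 in MNF_ciHep against pHep, 2 to 5 in pHep against MEF, 5 to 5 in ESC_EPC against ESC and 4 to 6 in MEF_ciEPC against ESC_EPC. A group of 2 then had a single sample, assumed to vary like the other groups. The 6.21 and 2.0 expected counts of Slc2a3 in pHep limit its fold changes there.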
